A study of Homo sapiens with 402 samples.

Results

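The genes that code for the proteins of the cytosolic ribosome were followed through all exposures of the series, each group against the controls of its own plate. Members were taken by symbol: RPL or RPS, a number and at most 1 letter (A, X or L), together with RPLP0, RPLP1, RPLP2 and RPSA. They also needed a mean of at least 10 CPM (counts scaled to a common library size) in the controls of the plate. Of the 34718 gene symbols listed for 4 of the plates, 80 fitted the pattern and 76 were kept. On the plate with DDE, 79 of 15081 symbols fitted, and the same 76 were kept. They comprised 31 genes of the small subunit (RPS and RPSA) and 45 of the large subunit (RPL and the P proteins). All 76 passed the filter on low counts on every plate. The 4 symbols left out were RPS10, RPL36A, RPL39L and RPL3L, of which RPL3L was not among the symbols of the DDE plate. RPL36A was just outside the threshold, with control means from 2.91 to 7.62 CPM over the plates, and RPL17 was among the lowest members, with 48.2 to 54.8 CPM on the 4 larger plates. RPS10 codes for a core protein of the small subunit, but its symbol had a control mean of at most 1.43 CPM. FAU, which codes for a ribosomal protein fused to a ubiquitin-like domain, does not carry such a symbol and was not a member. Its control means over the 4 larger plates were 396 to 428 CPM.

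A ribosome is built from ribosomal RNA and 1 copy of nearly every ribosomal protein, so a dividing cell makes these proteins in large and balanced amounts. The mRNAs typically start with a C followed by a run of pyrimidines, the 5′ terminal oligopyrimidine (TOP) tract, through which mTORC1 and LARP1 control their translation and stability. Some members have further roles: RPL5 and RPL11 carry 5S ribosomal RNA and can bind MDM2, the P proteins form the stalk that recruits translation factors, and RPS27L is a paralog of RPS27 known as a p53 target.

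MCF10A is a non-tumorigenic epithelial line from human breast. It was unmodified (wild type in the labels), and all wells came from cells expanded at passage 105, with 500 cells seeded in each well and 48 h of exposure to a single chemical or to its solvent. Doses were 0.025, 0.25, 2.5 and 25 µM, with 4 libraries per dose except MPB and PPB at 0.025 µM, with 3 each, and cadmium at 25 µM, with 2. The metals (mercury, lead, copper, cadmium and arsenic) shared 15 water controls as plate 3153-AT. The bisphenols and parabens BPA, BPF, BPS, MPB and PPB shared 15 DMSO controls as plate 3206-AT, and thiram shared 15 DMSO controls with DCB_14, DCP_25, PCB153 and PCB187 as plate 3284-AT. The DMSO-dissolved PFDA, PFNA, PFOS and Phenanthrene (12 DMSO controls) and the water-dissolved PFOA (4 water controls) made up plate 3240-AT. DDE, labelled with DMSO, was on a separate plate with 8 controls whose labels give water and the plate name 3153-AT, so the solvent and the chemical cannot be told apart there. Metals and organic chemicals are called here as they are labelled. The groups are wells of 1 cell line, so the p-values measure the spread between wells.

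Start sites were available for 61 of the 76 genes, from RefSeq promoters of GRCh38.p14. Of 76 listed starts of these genes, 64.5% had a C at the first base and 57.9% had a C followed by at least 4 more pyrimidines, against 14.7% and 4.07% of 35116 starts of all genes in the table. A CTTTCC or CTTTTCC motif on the strand of the gene, searched from 10 bases before to 20 bases after the start and overlapping the tract where both occur, was present at 32.9% of the starts of members and at 1.95% of all starts. At least 1 start with a tract was listed for 44 of the 61 genes. The windows below run from 25 bases before to 25 bases after the start and show genes the results turn on; capitals mark the C at the start and the pyrimidines that follow it, and a window without capitals has no such tract at the listed start. RPSA and RPL22 lay below every control with arsenic, and RPS27L was the 1 member called higher there. RPS27 and RPL39 were among the highest with cadmium and thiram, and RPS29 was among the lowest with MPB and BPA. RPL3 was among the longer genes not called with MPB at 25 µM.
RPSA (chr3:39406695-39406744, plus strand): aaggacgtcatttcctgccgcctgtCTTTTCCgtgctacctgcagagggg
RPL22 (chr1:6199571-6199620, minus strand): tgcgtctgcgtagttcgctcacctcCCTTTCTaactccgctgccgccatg
RPS27 (chr1:153990737-153990786, plus strand): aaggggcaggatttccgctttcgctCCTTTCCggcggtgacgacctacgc
RPL39 (chrX:119791606-119791655, minus strand): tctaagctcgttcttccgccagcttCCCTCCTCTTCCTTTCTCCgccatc
RPL3 (chr22:39319599-39319648, minus strand): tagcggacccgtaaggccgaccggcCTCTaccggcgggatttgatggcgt
RPS6 (chr9:19380212-19380261, minus strand): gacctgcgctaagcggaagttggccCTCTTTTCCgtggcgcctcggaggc
RPS29 (chr14:49598686-49598735, minus strand): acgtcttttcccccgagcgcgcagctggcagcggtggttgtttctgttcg
RPS27L (chr15:63157453-63157502, minus strand): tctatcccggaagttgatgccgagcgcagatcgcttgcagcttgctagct

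The 76 genes gave 4.49% to 12.1% of the counts of a library (median 8.72%, n = 401 libraries), with totals of 1.43 to 25.8 M (mega) counts per library. The highest control means of a member were those of RPS2, with 5506 to 6266 CPM on the 4 larger plates, and the median member was at 818 to 885 CPM. CPM values of single libraries are after TMM scaling, edgeR's correction for library composition. CPM values are not divided by gene length, so they order genes by reads and not by transcripts. Controls with low and high numbers stood apart. On plate 3153-AT the first 8 controls had 12.6 to 23.9 M counts and 9.63% to 10.97% of them in members, and the last 7 had 1.93 to 5.40 M counts and 6.83% to 8.30%, so the groups did not overlap. For this reason results are also given within numbers: dosed libraries 1 and 2 against the first controls, and 3 and 4 against the last. The labels do not link these numbers, so the match is an assumption. Totals of dosed libraries did not always split as in the controls. With arsenic at 25 µM they were 8.16 to 9.27 M in libraries 1 and 2 and 7.27 to 11.98 M in 3 and 4. Keratins and other basal epithelial markers were present in every library (8 genes, summed level 1309 to 17210 CPM), while ESR1 and PGR together reached at most 7.43 CPM and the endothelial genes PECAM1, VWF and CDH5 at most 10.1 CPM. Summed fibroblast markers (6 genes) were at 4.07 to 168.8 CPM and immune markers (4 genes) at 0 to 80.4 CPM.

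**Figure D1:**
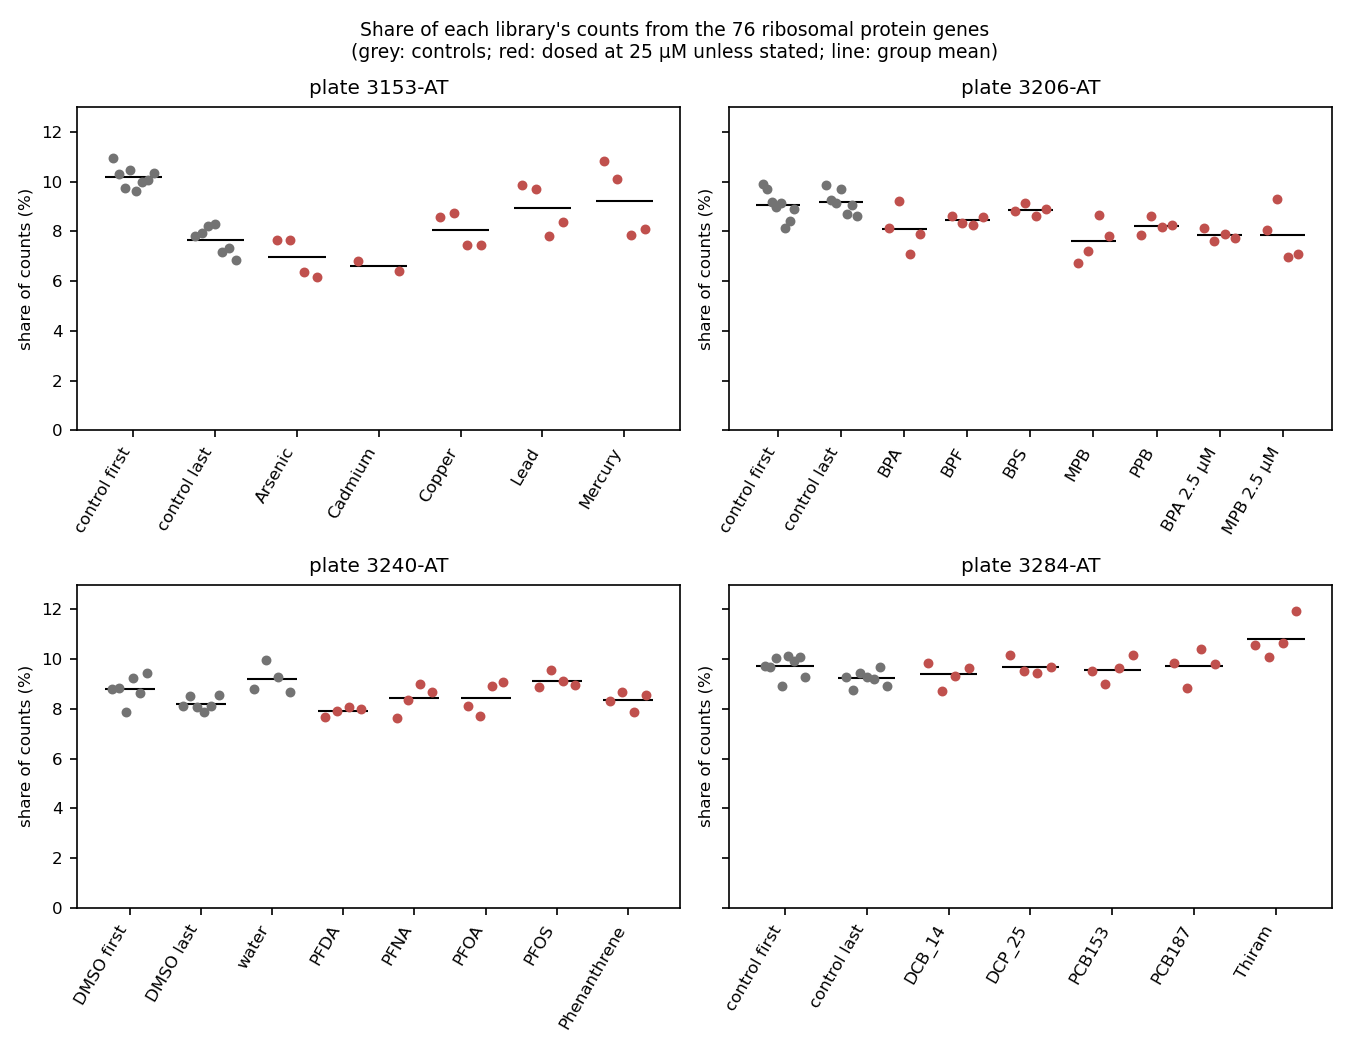
Share of the counts of each library that came from the 76 ribosomal protein genes (vertical axis, %), by group on the 4 larger plates. Points are libraries and lines are group means. On plate 3153-AT the last-numbered controls (6.83% to 8.30%) lay below the first-numbered ones (9.63% to 10.97%), and the 4 thiram libraries at 25 µM on plate 3284-AT (10.1% to 11.96%) lay at or above the top of the controls there (8.74% to 10.1%), the lowest of them within their range.

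With arsenic at 25 µM, ribosomal protein mRNAs were mostly lower than in the water controls. The edgeR test called 38 of 76 members lower and 1 higher, where 18.2% of all tested genes were called lower and 23.2% higher. Log2 fold changes were negative for 73 members, with a median of -0.41 beside 0.001 for all genes tested. Both subunits took part, with 14 of 31 small-subunit and 24 of 45 large-subunit genes lower. RNA was measured per library and relative to its other genes, so cell number and RNA per cell cannot be read from these values. Nor can a change in the mix of cells be told apart from a change within cells.

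RPSA, the small-subunit protein also known as the laminin receptor precursor, had 1265, 1221, 1074 and 1037 CPM with arsenic against 1708 to 2372 CPM in the 15 controls (median 2168). All 4 arsenic libraries were below every control, and the log2 fold change was -0.88 (SE 0.11, adjusted p = 1.32e-11). RPL5, 1 of the proteins bound to 5S ribosomal RNA, had 811, 800.1, 696 and 569 CPM against 950.3 to 1503 CPM (median 1363), again without overlap, a log2 fold change of -0.85 (SE 0.11, adjusted p = 1.03e-10). Its partner RPL11 had 899.8, 841, 659.9 and 656 CPM against 760.5 to 1390 CPM, with overlap, and fell by 0.51 on the log2 scale (SE 0.16, adjusted p = 0.00596). RPL22, a large-subunit protein that is not needed for the core function of the ribosome, had 48.6, 52.5, 63.5 and 51.5 CPM against 94.2 to 121 CPM. Its log2 fold change was -1.04 (SE 0.13, adjusted p = 3.15e-11), and no arsenic library reached a control. Its paralog RPL22L1, which is no member, was lower as well (log2 fold change -1.79, SE 0.14, adjusted p = 8.19e-21).

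RPL17, whose locus overlaps the readthrough gene RPL17-C18orf32, had 29.5, 20.8, 23.1 and 25.4 CPM with arsenic against 33.9 to 72.3 CPM in controls, below every control (log2 fold change -1.17, SE 0.18, adjusted p = 3.61e-08). RPL23A, which lies beside the exit of the nascent chain, fell by 0.86 on the log2 scale (SE 0.22, adjusted p = 0.000587). RPS3, at the entry of the mRNA channel, fell by 0.62 (SE 0.12, adjusted p = 1.37e-05) and RPL3, next to the peptidyl transferase centre, by 0.51 (SE 0.12, adjusted p = 0.000395) on the log2 scale. RPS27A, made as a fusion with ubiquitin, fell by 0.48 (SE 0.17, adjusted p = 0.0170) and the stalk base RPLP0 by 0.37 (SE 0.13, adjusted p = 0.0172). The smallest called decreases were those of RPL9 (-0.35), RPL10A (-0.36), RPLP0 and RPL8 (-0.38).

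Several members gave no call with arsenic. The stalk proteins RPLP1 and RPLP2 had log2 fold changes of -0.10 (SE 0.19) and -0.21 (SE 0.20), RPL10 of -0.06 (SE 0.14), RPS14 of -0.25 (SE 0.19) and RPS19 of -0.19 (SE 0.20). RPS6, the subunit protein phosphorylated downstream of mTORC1, had 1942, 2022, 1733 and 1724 CPM against 1545 to 2755 CPM, with an adjusted p of 0.0603. RPS27 had a positive value (0.38, SE 0.26, adjusted p = 0.267). Its paralog RPS27L was the 1 member called higher: 163, 170.4, 128 and 122.5 CPM against 38.5 to 129 CPM in the controls (log2 fold change 0.62, SE 0.22, adjusted p = 0.0144). Libraries 1 and 2 lay above all controls; libraries 3 and 4 lay within the range of the first controls (89.9 to 129 CPM) and above the last (38.5 to 83.5 CPM).

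The number of lower members with arsenic depended on the libraries and the scaling. Without library 3 it was 24, without library 4 it was 17, against the first controls alone it was 64 (libraries 1 and 2, median -0.43) and against the last alone 21 (libraries 3 and 4, median -0.13). RLE scaling gave 20 and DESeq2 21. The 18.2% of all genes belongs to the main fit, and the shares in these other fits are not given here. At 0.025, 0.25 and 2.5 µM no member was called. RPSA had log2 fold changes of -0.05 (SE 0.10), -0.07 (SE 0.10) and 0.08 (SE 0.10) at these doses, RPL5 of -0.02, -0.06 and -0.05 (SE 0.10 each), and RPL22 of -0.20 (SE 0.11), -0.22 (SE 0.11) and -0.27 (SE 0.12), none of them called. In a linear trend over the 4 doses, 13 members were lower and 1 higher with dose, where 15.6% of all genes were lower, and 41 were lower with first or last numbers as a term. Mitochondrially coded mRNAs took 1.44% to 2.12% of the counts with arsenic and 3.89% to 5.65% in the controls, the summed epithelial markers 747 to 863 CPM against 969.9 to 1277 CPM and the immune markers 2.45 to 5.09 CPM against 22.8 to 75.04 CPM; the part of these shifts in the result was not tested.

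**Figure D2:**
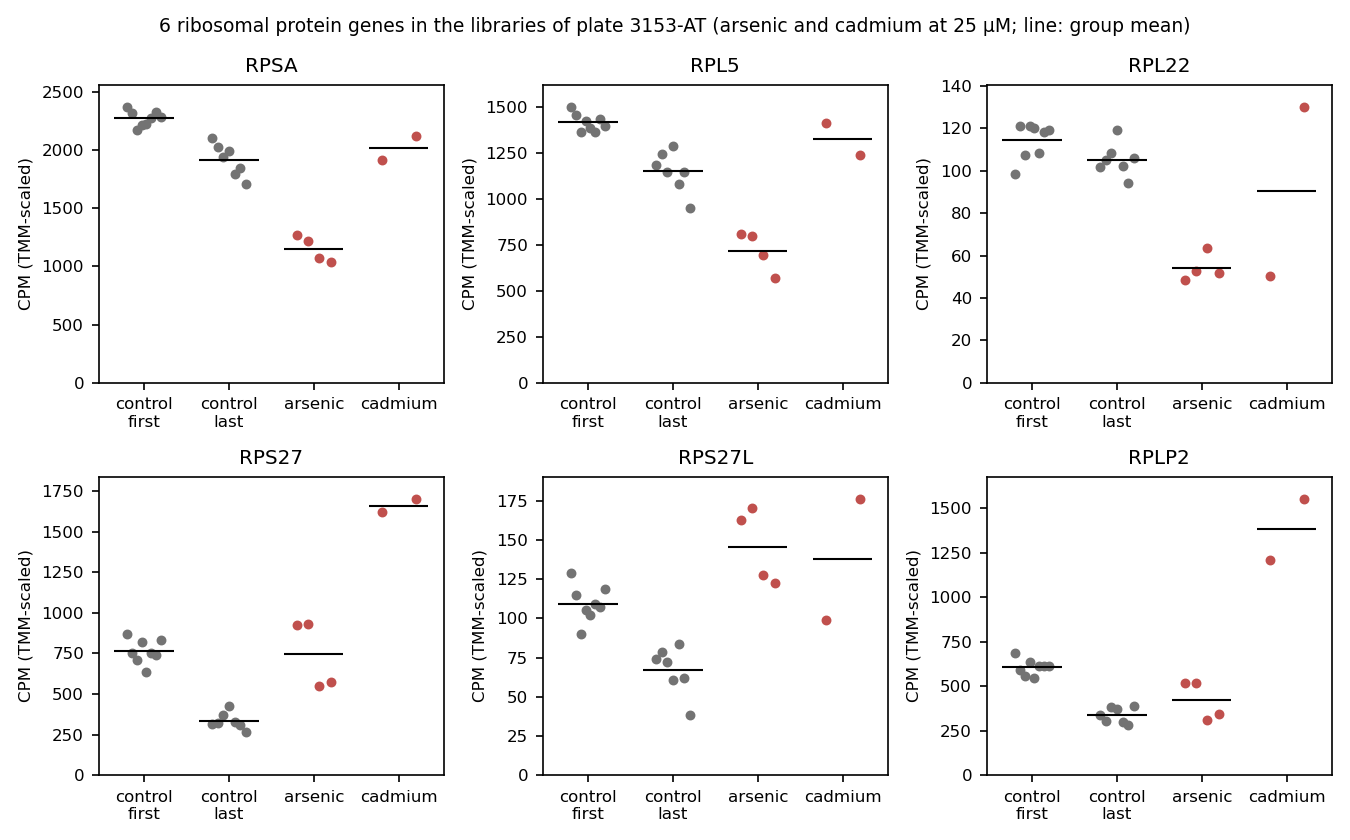
TMM-scaled CPM (vertical axis) of 6 ribosomal protein genes in the libraries of plate 3153-AT: controls with the first 8 and last 7 numbers, arsenic 25 µM (n = 4) and cadmium 25 µM (n = 2). Points are libraries and lines are group means; RPSA, RPL5 and RPL22 with arsenic lie below every control, and RPS27 and RPLP2 with cadmium lie above every control.

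Cadmium at 25 µM gave the opposite picture under the main scaling. Of 76 members 28 were called higher (9 of the small and 19 of the large subunit) and 0 lower, where 5.67% of all genes were called higher. Log2 fold changes were positive for 69 members, with a median of 0.55 beside -1.42 for all genes tested. The libraries were shallow (1.43 and 1.45 M counts), and only 2 were used, since the third carried the plate barcode of 3284-AT. Without library 1 the test called 13 and without library 2 it called 4, with the single remaining library assumed to vary like the other groups.

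The highest called values belonged to RPS27, RPL39 and RPL37, with 153 to 291 coding nucleotides, and to RPLP2 (345) and RPL24 (471). RPS27 had 1621 and 1704 CPM against 263 to 871 CPM in the controls (median 635), with no overlap and a log2 fold change of 1.53 (SE 0.35, adjusted p = 0.000948). In the first controls alone, whose numbers match those of both cadmium libraries, RPS27 had 635 to 871 CPM. The fold changes and ranges given here are against first and last controls together. The stalk protein RPLP2 had 1210.0 and 1552 CPM against 279 to 683 CPM (1.4997, SE 0.26, adjusted p = 7.05e-06), and its partner RPLP1 had 3425 and 4397 CPM against 1141 to 2477 CPM (1.10, SE 0.24, adjusted p = 0.000381). RPL39, a small protein lining the exit tunnel, had 658 and 655 CPM against 116 to 358 CPM (1.38, SE 0.35), RPL37 612 and 648 CPM against 132 to 359 CPM (1.36, SE 0.32) and RPL24 650.4 and 634 CPM against 107 to 366 CPM (1.26, SE 0.28). At the low end of the called members were RPL6 (0.54, SE 0.15), RPL14 (0.55, SE 0.19), RPL18 (0.57, SE 0.20), RPS7 (0.63, SE 0.21) and RPL12 (0.71, SE 0.24). RPS14 (0.73, SE 0.24, adjusted p = 0.0371) and RPS19 (0.94, SE 0.26, adjusted p = 0.00770) were called as well. Several longer members were not: RPL3 had 3543 and 3548 CPM against 2670.0 to 4811 CPM (-0.13, SE 0.17), RPLP0 had a value of 0.13 (SE 0.18), RPSA of -0.07 (SE 0.14) and RPL5 of 0.03 (SE 0.15). RPL22 had 50.2 CPM in 1 library and 130.2 CPM in the other, on both sides of the controls.

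This result turned over with the scaling. MT-RNR2, the large mitochondrial ribosomal RNA, took 31.6% and 37.5% of all counts with cadmium and 3.88% to 6.08% in the controls, and the TMM factors of the cadmium libraries were 0.491 and 0.556 against 0.951 to 1.13. As a share of all counts the members were at 6.39% and 6.81% with cadmium, under or at the low edge of the controls (6.83% to 10.97%). Both cadmium libraries carry first numbers, and the first controls alone were at 9.63% to 10.97%. With MT-RNR1 and MT-RNR2 taken out of the totals the members were at 10.0% and 10.3%, within the controls (7.12% to 11.7%, median 10.3%). That range pools first and last controls and was not split by number. Scaled by total counts only, 27 members were called lower and 0 higher (median -0.39), and RPL6, RPL14, RPL18, RPS7 and RPL12 turned negative. Scaled by totals without mitochondrial rRNA, 8 were higher and 5 lower (median 0.16). RLE scaling gave 43 higher and 0 lower and DESeq2 57 higher and 0 lower. RPS27, RPLP2 and RPL39 were positive and above RPL3 and RPLP0 under each of these scalings and with DESeq2. Summed epithelial markers were at 418 to 428 CPM with cadmium against 969.9 to 1277 CPM, and immune markers at 0 to 1.40 CPM against 22.8 to 75.04 CPM. Mitochondrially coded mRNAs took 7.21% and 8.65% of the counts with cadmium against 3.89% to 5.65%. Their part in the result was not tested.

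**Figure D3:**
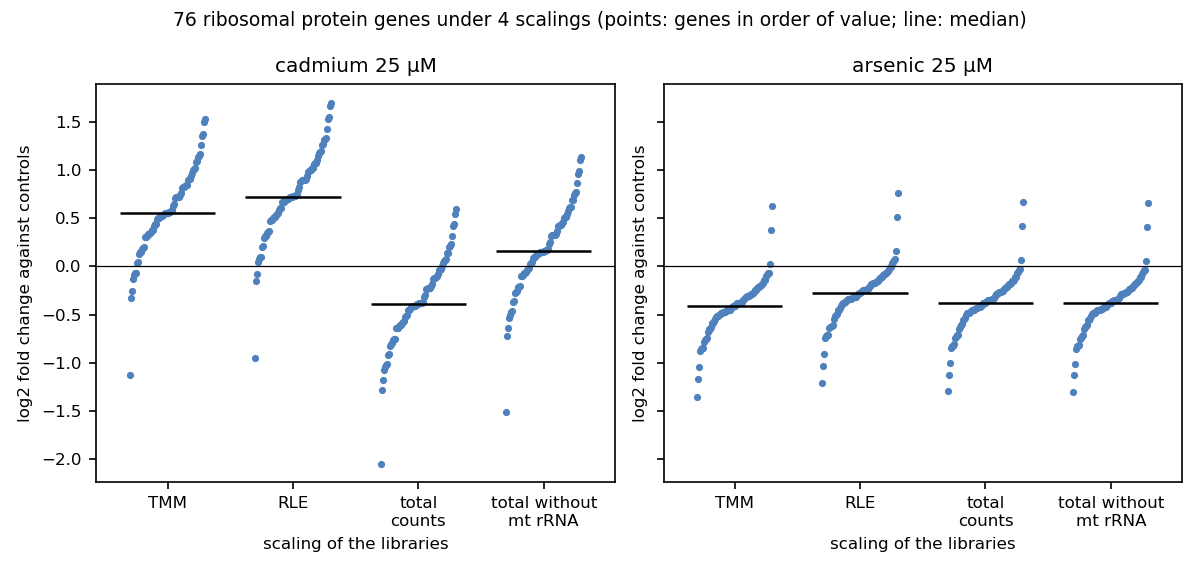
Log2 fold changes against the plate controls (vertical axis) of the 76 ribosomal protein genes with cadmium and arsenic at 25 µM under 4 scalings: TMM, RLE, total counts, and total counts without mitochondrial rRNA. Points are genes in order of value and lines are medians; the cadmium median moves from 0.55 (TMM) to -0.39 (total counts), while the arsenic median is negative under each.

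Set directly against each other at 25 µM, arsenic had 54 members called lower than cadmium and 0 higher, where 4.32% of all genes were called lower. The median of members was -1.02 beside 0.81 for all genes tested. The cadmium libraries carry only first numbers, and the arsenic libraries carry first and last. The largest differences were those of RPL35 (-1.82, SE 0.30), RPL37 (-1.78, SE 0.37) and RPLP2 (-1.71, SE 0.31), and RPS27L had the 1 positive value (0.10, SE 0.51). Without library 2 of each dosed group the count was 22. This contrast also rests on the scaling: 26 were lower with totals freed of mitochondrial rRNA, and with total counts 2 were lower and 7 higher. Over the cadmium doses, 12 members rose with dose, where 4.18% of all genes did. RPS27 showed values of -0.13, -0.03 and -0.20 (SE 0.27 to 0.28) at 0.025, 0.25 and 2.5 µM, beside a slope of 0.48 per 10-fold dose (SE 0.13). With total counts 0 members rose with dose, and 2 to 5 did when any 1 library number was left out of the dosed groups, while DESeq2 gave 34.

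With thiram at 25 µM most members were higher. The test called 42 of 76 higher and 1 lower, where 13.7% of all genes were called higher and 12.2% lower, and the median was 0.27 beside -0.11 for all genes. The counts were 17 of 31 for the small and 25 of 45 for the large subunit. RPS6 had 2927, 2735, 2957 and 3222 CPM against 2032 to 2446 CPM in the 15 DMSO controls, every thiram library above every control (0.40, SE 0.05, adjusted p = 4.61e-10). RPL32 had 1091, 965, 1292 and 1499 CPM against 619 to 957 CPM, again without overlap (0.58, SE 0.09, adjusted p = 6.36e-08). RPS19, a small-subunit protein mutated in Diamond-Blackfan anaemia, had 1614, 1559, 1602 and 1689 CPM against 834 to 1479 CPM, and RPS27 963, 967, 1000.0 and 986 CPM against 399 to 854 CPM.

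The highest called value was that of RPL39 (0.67, SE 0.16, adjusted p = 0.000330), with 346, 307, 477 and 673 CPM against 194 to 312 CPM. After RPL32, the next were RPL27A (0.56, SE 0.14) and RPS12 (0.55, SE 0.10). In RPL39, RPL27A and RPS12 libraries 3 and 4 were higher than libraries 1 and 2, and in RPL39 library 2 lay within the controls. The lowest called increases were those of RPL13 (0.17, SE 0.07), RPLP0 (0.18, SE 0.07) and RPL10A (0.19, SE 0.06). RPL10 (0.27), RPL11 (0.38), RPLP1 (0.31), RPLP2 (0.49) and RPS14 (0.33) were called, while RPL3 (0.15, SE 0.09), RPS3 (0.06, SE 0.06), RPS27A (0.16, SE 0.12), RPL5 (-0.08, SE 0.13), RPSA (-0.06, SE 0.15), RPL22 (-0.30, SE 0.16) and RPS27L (0.26, SE 0.13) were not. The 1 member called lower was RPL17, with 29.5, 42.2, 8.47 and 3.73 CPM against 29.3 to 84.4 CPM (-1.21, SE 0.24, adjusted p = 2.38e-05).

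The thiram counts differed between the numbers. Against the first controls, libraries 1 and 2 gave 11 higher members with a median of 0.06, and RPL13 turned to -0.02; against the last controls, libraries 3 and 4 gave 53 with a median of 0.47. Without library 4 the count was 20. The 13.7% of all genes belongs to the main fit, and the shares in these other fits are not given here. At 0.025 to 2.5 µM no member was called, and RPS6 stood at 0.01, -0.03 and -0.02 (SE 0.05 each). Over the 4 doses 20 members rose and 1 fell, where 9.24% of all genes rose. The number that rose was 12 without library 2, 6 without library 3 and 5 without library 4. Mitochondrially coded mRNAs took 1.81% to 2.39% of the counts with thiram against 4.37% to 5.17%, summed epithelial markers were at 481 to 845 CPM against 719 to 1035 CPM, fibroblast markers at 4.07 to 27.02 CPM against 30.5 to 76.9 CPM and immune markers at 3.16 to 15.9 CPM against 19.4 to 59.8 CPM; their part was not tested.

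**Figure D4:**
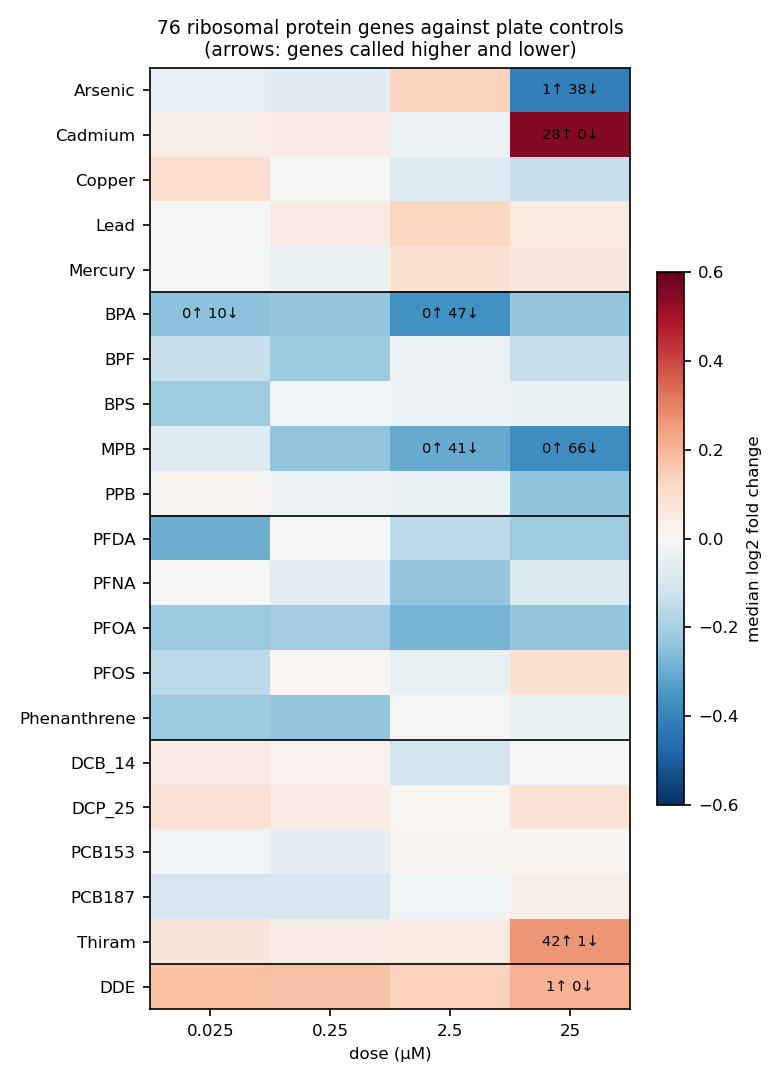
Median log2 fold change of the 76 ribosomal protein genes against the controls of the plate (colour) for 21 chemicals (rows, by plate) and 4 doses (columns, µM). Arrows give the numbers of genes called higher and lower where any was called; arsenic at 25 µM (38 lower), MPB at 25 µM (66 lower) and BPA at 2.5 µM (47 lower) are the darkest blue, cadmium (28 higher) and thiram (42 higher) at 25 µM the darkest red.

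Plate 3206-AT held the most uniform decreases. With MPB at 25 µM 66 of 76 members were called lower (28 of 31 small, 38 of 45 large) and 0 higher, where 0.946% of all genes were called lower. All 76 log2 fold changes were negative, with a median of -0.37 beside -0.03 for all genes. BPA at 2.5 µM had 47 lower members (background 0.520%, median -0.36), MPB at 2.5 µM 41 (background 0.650%, median -0.30) and BPA at 0.025 µM 10 (background 0.112%, median -0.25). In these 3 groups too, all 76 values were negative and 0 members were called higher. These 4 groups share their controls.

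RPS29, a short zinc-binding protein of the small subunit, had 237, 200.2, 359 and 224 CPM with MPB at 25 µM against 272 to 508 CPM in the 15 DMSO controls, so 3 of the 4 libraries were below every control (-0.62, SE 0.14, adjusted p = 0.00561). With BPA at 2.5 µM it had 237, 198, 252 and 211 CPM, all below the controls (-0.80, SE 0.14, adjusted p = 0.000333). With BPA at 0.025 µM it had 257, 247, 217 and 244 CPM, also all below them (-0.69, SE 0.14, adjusted p = 0.0101). RPS27 had log2 fold changes of -0.63 (SE 0.12) with MPB at 25 µM, -0.63 (SE 0.12) with BPA at 2.5 µM, -0.60 (SE 0.12) with BPA at 0.025 µM and -0.47 (SE 0.11) with MPB at 2.5 µM. RPL34 was at -0.60 (SE 0.11), RPL41, the shortest member, at -0.56 (SE 0.10) and RPL31 at -0.54 (SE 0.10) with MPB at 25 µM. The smallest called decreases with MPB at 25 µM were those of RPS3A (-0.23), RPL6 (-0.24), RPS4X (-0.24), RPL8 (-0.24) and RPL7 (-0.25), each with an SE of 0.05 to 0.06.

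Several of the longer members were not called. RPL3 had 2571, 3282, 3205 and 3232 CPM with MPB at 25 µM against 3167 to 3957 CPM (-0.18, SE 0.05, adjusted p = 0.0537), and RPL4 a log2 fold change of -0.14 (SE 0.05). RPLP0 (-0.19, adjusted p = 0.0538), RPL5 (-0.22, adjusted p = 0.0537), RPSA (-0.21, adjusted p = 0.0821), RPL22 (-0.05) and RPS27L (-0.35, SE 0.12) were not called. RPS6 (-0.25), RPS3 (-0.27), RPL10 (-0.27), RPL11 (-0.39), RPS14 (-0.37), RPLP1 (-0.40), RPS19 (-0.42), RPS27A (-0.44) and RPLP2 (-0.50) were. With BPA at 2.5 µM, RPL3 (-0.10, SE 0.05), RPL4 (-0.07, SE 0.05), RPSA (-0.08, SE 0.06), RPLP0 (-0.16, SE 0.06) and RPL22 (-0.03, SE 0.09) gave no call.

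These counts rested on single libraries. For MPB at 25 µM the count was 0 without library 1, with a median of -0.31, and 51 to 70 without each of the others; libraries 1 and 2 gave 71 (median -0.53) and libraries 3 and 4 gave 31 (median -0.23) within their numbers. For MPB at 2.5 µM it was 0 without library 3 or without library 4, 19 without library 1 and 70 without library 2. For BPA at 2.5 µM it was 30 without library 1 and 26 without library 4. For BPA at 0.025 µM it was 3 without library 1, 1 without library 3 and 25 without library 2. Each of these fits dropped the given number from all dosed groups together. The members took 6.75% to 8.68% of the counts with MPB at 25 µM, 7.62% to 8.12% with BPA at 2.5 µM and 8.13% to 9.90% in the controls.

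Across doses of BPA, RPS29 was at -0.69, -0.51, -0.80 and -0.52 (SE 0.14 each) from the lowest to the highest dose, and the adjusted p was 0.114 at 0.25 µM and 0.270 at 25 µM. With MPB it was at -0.22 (SE 0.15), -0.51, -0.54 and -0.62 (SE 0.14 each). The trend test called 0 members for MPB, and 0% of all genes lower; 66 members had an unadjusted p under 0.05 and DESeq2 called 0. BPA at 25 µM had a median of -0.23 with all 76 values negative and 0 calls (67 members at an unadjusted p under 0.05, DESeq2 3). Without library 2 the count there was 47.

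Among the other 16 chemicals at 25 µM the edgeR test called 0 members in 1216 tests, where 0.646% of all genes were called in either direction. An unadjusted p under 0.05 was reached in 239 tests, DESeq2 called 7, and the smallest adjusted p was 0.0631. The 0 depended on the libraries: 47 were called without number 2 of every dosed group, all of them with BPA. With the first numbers alone 120 were called, with the last alone 128 and with first or last numbers as a term 16. The 0.646% belongs to the main fit, and the shares of all genes called in these other fits are not given here. Medians ran from -0.24 (PPB) to 0.09 (PFOS), and 10 of the 16 were below 0. PPB had 65 members at an unadjusted p under 0.05 and PFDA 36 (median -0.21). Over the other 60 groups below 25 µM, 0 members were called in 4560 tests (718 at an unadjusted p under 0.05, DESeq2 38, smallest adjusted p 0.0536), where 0.146% of all genes were. At 0.25 µM, where no group of the 20 chemicals other than DDE had a call, 37 were called without number 2, 4 without number 3 and 17 without number 4. The trend test gave 0 calls for the other 17 chemicals (169 of 1292 tests at an unadjusted p under 0.05, DESeq2 1), where 0.194% of all genes were called. For 16 of them a fit with the library number as a replicate block gave 135 calls, against 27 in the same 4 dose groups without the block, and first or last numbers as a term gave 22.

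DDE at 25 µM had 1 member called higher, RPS26, where 3.56% of all genes were called higher. RPS26, a small-subunit protein near the mRNA exit, had 217, 288, 341 and 338 CPM against 153 to 241 CPM in the 8 controls of its plate (median 179), with 3 of 4 libraries above all controls (0.61, SE 0.17, adjusted p = 0.0368). The call was lost without library 2 and without library 3. The median of the members was 0.21, and they took 5.32% to 6.05% of the counts against 4.49% to 5.51%.

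Controls of 1 plate also differed among themselves. On plate 3153-AT the last-numbered controls had 70 of 76 members lower than the first-numbered ones and 0 higher, where 3.39% of all genes were called lower (median of members -0.67). RPS29 had 174 to 262 CPM in the last 7 (median 200.4) and 384 to 582 CPM in the first 8 (median 502), a log2 fold change of -1.24 (SE 0.24, adjusted p = 0.000501), with no overlap. RPS27 was at -1.19 (SE 0.23) and RPL34 at -1.07 (SE 0.20), while RPL4 (-0.17, SE 0.06), RPSA (-0.24, SE 0.09) and RPL22 (-0.12, SE 0.11) were not called. On plate 3284-AT 13 members were lower and 1, RPSA (0.45, SE 0.13), higher in the last controls (backgrounds 1.23% and 0.314%), with RPS27 at -0.52 (SE 0.10) and RPS19 at -0.49 (SE 0.07). On plate 3206-AT the 1 member called lower was RPL4 (-0.15, SE 0.04; background 0.995%), and RPS29 stood at 0.37 (SE 0.11, adjusted p = 0.0730). On plate 3240-AT 0 were called among the DMSO controls (45 at an unadjusted p under 0.05, DESeq2 0; 0.149% of all genes lower), with a median of -0.25. Water against DMSO controls on that plate had 1 member called higher, RPS6 (0.21, SE 0.07, adjusted p = 0.0439), where 4.08% of all genes were called in either direction; all 76 values were positive, with a median of 0.15. The count was 0 when any of 3 of the 4 water controls was left out, 0 within the first numbers, 22 within the last and 0 with total counts.

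Coding length went with these differences, a feature that the choice of members did not use. Coding lengths ran from 75 (RPL41) to 1281 nucleotides (RPL4), and genes are not independent replicates, since all share the same libraries. Across the 76 members the Spearman correlation of log2 fold change with coding length was 0.91 for BPA at 0.025 µM, 0.88 for BPA at 2.5 µM, 0.77 for MPB at 25 µM, 0.74 for MPB at 2.5 µM and 0.77 for PPB at 25 µM. For last against first controls it was 0.77 with the water controls of 3153-AT and 0.65, 0.31 and -0.71 with the DMSO controls of 3240-AT, 3284-AT and 3206-AT. It was -0.62 for cadmium, -0.28 for thiram and -0.20 for arsenic at 25 µM, and -0.67 to 0.77 over the 21 chemicals at that dose. With BPA at 2.5 µM the median was -0.56 for the 10 members of at most 300 coding nucleotides, -0.39 for the 44 of up to 600 and -0.17 for the 22 longer ones, of which 3 were called. With cadmium these medians were 1.06, 0.68 and 0.31, and with arsenic -0.32, -0.42 and -0.42, so the arsenic decrease was not larger in the short members.

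Short transcripts of other genes moved likewise on plate 3206-AT. Among protein-coding genes that are no members, with an average of at least 10 CPM, those with a transcript of at most 700 nucleotides had a median of -0.31 with MPB at 25 µM, and 38 of 173 were called lower, against 0.01 and 87 of 8330 for longer transcripts. With BPA at 2.5 µM the values were -0.28 (29 of 173) against 0.02 (30 of 8330), and for last against first controls on plate 3153-AT -0.56 (96 of 175) against 0.00 (536 of 8210). With thiram the medians were -0.23 against -0.12, so there the other short genes had a negative median and the members a positive one. Called lower with thiram were 61 of the 177 short ones and 2230 of the 8259 longer ones, and called higher 22 and 1662. With arsenic the medians were -0.43 against -0.17 and with cadmium 0.37 against -0.45. The part of transcript length in the calls was not tested.

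**Figure D5:**
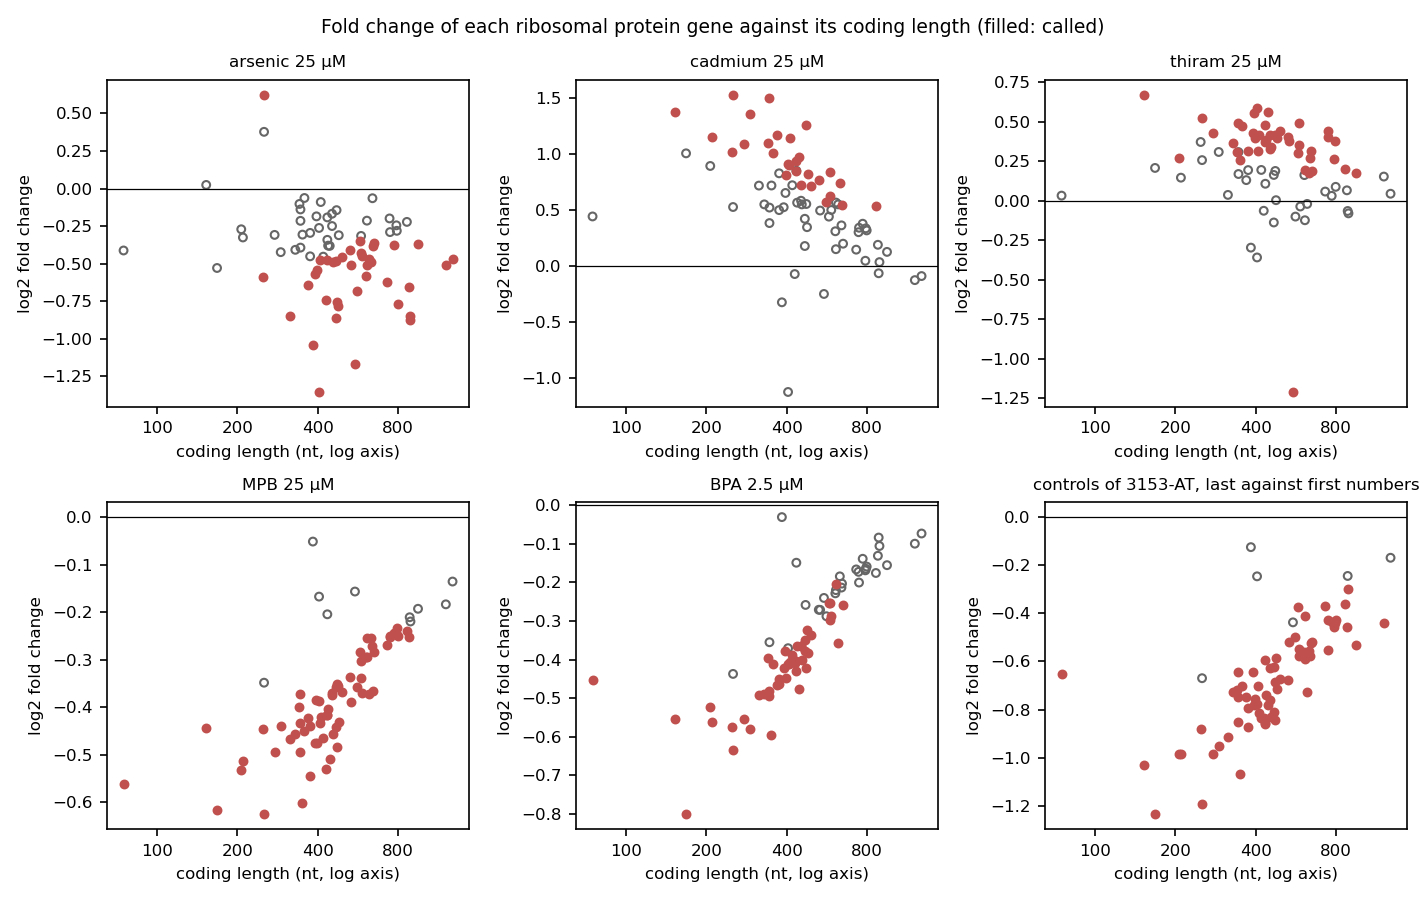
Log2 fold change (vertical axis, its range set per panel) of each of the 76 ribosomal protein genes against its coding length (horizontal log axis, nucleotides) in 6 comparisons. Filled points were called at an adjusted p under 0.05; MPB, BPA and the controls of 3153-AT show the most negative values at short lengths, and cadmium the highest.

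Other genes of ribosome production set these results in context. Of 45 genes of ribosome biogenesis, 34 were lower and 1 higher with arsenic at 25 µM (median -1.29): NCL, a nucleolar protein of rRNA transcription, had 286, 293, 338 and 309 CPM against 855 to 1290 CPM (-1.78, SE 0.12), FBL, the rRNA methyltransferase, fell by 1.19 (SE 0.11), NOP56 by 0.83 (SE 0.10) and NPM1 by 0.73 (SE 0.07) on the log2 scale. With cadmium 17 were lower and 2 higher (median -0.61), with thiram 14 lower and 3 higher (median -0.25), with MPB 2 lower and 0 higher (median 0.03) and with BPA at 2.5 µM 0 either way (median 0.07). With thiram the members and the biogenesis genes therefore had medians of opposite sign, and with MPB the members had a negative one and the biogenesis genes one near 0. With DDE 16 of 45 biogenesis genes were higher, where 3.56% of all tested genes were called higher at 25 µM. The shares of all tested genes called lower were 18.2% with arsenic, 5.38% with cadmium and 12.2% with thiram. They were 0.946% with MPB at 25 µM and 0.520% with BPA at 2.5 µM. Called higher were 23.2% with arsenic, 5.67% with cadmium and 13.7% with thiram. Of 93 tested symbols of mitochondrial ribosomal proteins, which include some antisense and pseudogene symbols, 62 were lower and 2 higher with arsenic (median -0.86), and 46 of 91 lower and 2 higher with thiram (median -0.52).

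Translation factors whose mRNAs also carry TOP tracts did not move as a block. Of 24 tested, 11 were lower and 3 higher with arsenic, 4 lower and 8 higher with thiram, 5 lower and 4 higher with cadmium and 7 lower and 0 higher with MPB. EEF2, the translocation factor, had 4400.0, 4500.0, 5207 and 5425 CPM with arsenic against 2932 to 3786 CPM (0.52, SE 0.06) and was higher with thiram as well (0.60, SE 0.09). TPT1 was higher with arsenic (0.32, SE 0.11) and cadmium (0.91, SE 0.16). EEF1A1 gave no call (-0.07, SE 0.08 with arsenic; 0.06, SE 0.12 with thiram), and PABPC1 fell by 0.51 on the log2 scale (SE 0.09) with cadmium and was higher with thiram (0.19, SE 0.06). Among 21 genes of mTORC1 and TOP control, SESN2, a stress-induced inhibitor of mTORC1, was higher with arsenic (4.27, SE 0.14), cadmium (3.44, SE 0.31) and thiram (3.19, SE 0.14), and DDIT4, another inhibitor, was lower (-2.23, SE 0.17; -2.48, SE 0.31; -1.96, SE 0.19). Both were picked after their values were seen and do not stand for the list, whose other genes are not reported here. Over the other 17 chemicals at 25 µM, this list had 2 calls higher and 3 lower in 356 tests. Of tested symbols of ribosomal protein pseudogenes, whose reads can be shared with the members, 38 of 288 were higher and 1 lower with thiram, 7 higher and 13 lower of 349 with arsenic and 1 of 355 lower with MPB at 25 µM. Of all tested genes, 13.7% were called higher and 12.2% lower with thiram, and 23.2% higher and 18.2% lower with arsenic. With cadmium 5.67% were higher and 5.38% lower, and with MPB at 25 µM 0.946% were lower.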

How the data were processed

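RNA-seq was made from lysates of MCF10A wells with plexWell barcodes. The values are raw counts per gene as the authors deposited them; per the submitters' processing notes FastQC, MultiQC, STAR, featureCounts and GRCh38 were used, with versions not given in the sources used here. No molecular identifiers are named, so counts are of reads and not of molecules. Libraries were grouped by labelled chemical and dose, and plates by the plate barcode of the title. Of 402 libraries 401 were used; cadmium 25 µM library 4, with the barcode of another plate, was left out. No pair of libraries within a group was identical (908 pairs), so all were counted separately.

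Each plate was fitted with edgeR 4.0.16 (R 4.3.3, TMM scaling, quasi-likelihood test, filterByExpr with a minimum count of 10 and a total of 15), all groups sharing the spread. Calls are Benjamini-Hochberg adjusted p-values under 0.05 over all tested genes. DESeq2 1.42.0, RLE scaling, other filters, leaving out libraries and fits within numbers were alternatives. The fit was tested on simulated data. Members named are, for chemicals with at least 10 members called at 25 µM, the 5 lowest and 5 highest called values with all libraries on 1 side of the control mean; for others the called member with the smallest p; and a set list of 16 members and 8 other genes. Genes outside this rule were chosen after their values were seen. Some genes are counted with the others but not reported here by name. Members and lists were chosen with earlier results of these data known, and coding length was looked at after the fold changes were seen. Gene positions and lengths are from GENCODE v29, start windows from RefSeq. Equal replicate numbers were not treated as pairs: in 0 of 20 chemicals was every correlation of deviations over 0.1. That rule is strict and does not show that the numbers are unrelated. Of 316 libraries, 157 correlated best with their own number, and the main fit leaves such a resemblance out. Trend counts with a replicate block are given below.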

Additional observations from a re-analysis of the deposited data

Results flagged for a closer look

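Of 83 groups tested, 1 had a library far from the others in the share of counts from ribosomal protein genes: BPF at 2.5 µM, library 2, with 8.36% beside 9.08% to 9.18% in the other 3 libraries. Its gap to the nearest library, divided by the whole range, was 0.875, above Dixon's 95% critical value for 4 libraries. Chance alone marks about 1 in 20 groups. Its total was 13.3 M (mega) counts beside 11.8 to 14.5 M. Among 30 values of named genes 0 were so marked.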

How the results depend on the processing

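Counts of called members are given after the count in the report. Shares of all genes called in these alternative fits are not given, so the counts cannot be set against all genes. Arsenic, lower (38): RLE 20, first or last numbers as a term 60, first numbers 64, last numbers 21, DESeq2 21, single numbers left out 17 to 42. Cadmium, higher (28): RLE 43, total counts 0 (27 lower), no filter 45, totals without mitochondrial rRNA 8, DESeq2 57, left out 4 to 31. MPB, lower (66): last numbers 31, left out 0 to 70. Thiram, higher (42): first numbers 11, left out 20 to 43. The 16 other chemicals at 25 µM (0): RLE 2, total counts 3, no filter 126, numbers as a term 16, first 120, last 128, groups fitted alone 3, DESeq2 7, left out 0 to 47, the 47 all with BPA. DDE (1): DESeq2 3, left out 0 to 2. For 20 chemicals at 0.025 µM (10): no filter 166, numbers as a term 43, DESeq2 50, left out 1 to 25. At 0.25 µM (0): RLE 2, total counts 3, no filter 160, members left out of the scaling 2, numbers as a term 16, DESeq2 6, left out 0 to 37. At 2.5 µM (88): no filter 194, numbers as a term 146, left out 26 to 107.

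Trends with dose, with the fit that has a replicate block beside its partner on the same groups without the block: arsenic (13) block 25, numbers as a term 41, left out 10 to 13. Cadmium (12): block 27, without the block 21, RLE 21, total counts 0, no filter 27, numbers as a term 23, totals without mitochondrial rRNA 3, DESeq2 34, left out 2 to 5. MPB (0): block 0, no filter 41, numbers as a term 2, left out 0 to 2. Thiram (20): block 24, RLE 32, DESeq2 35, left out 5 to 19. The 16 others (0): block 135, without the block 27, no filter 63, numbers as a term 22, DESeq2 1, left out 0 to 1. The labels give only shared numbers, and in 0 of 20 chemicals was every same-number correlation over 0.1. Of 316 libraries 157 correlated best with their own number, where chance over 4 numbers gives about 1 in 4, a hint from the data that libraries of a number resemble each other. Arsenic against cadmium (54): total counts 2, totals without mitochondrial rRNA 26, left out 22 to 49. Last against first controls: 3206-AT (1) RLE 0, total counts 3, no filter 15; 3240-AT (0) no filter 26; 3284-AT (14) RLE 9. Water against DMSO (1): total counts 0, no filter 5, numbers as a term 2, first 0, last 22, DESeq2 2, left out 0 to 1. With total counts the cadmium median was -0.39, RPL6 -0.41, RPL14 -0.40, RPL18 -0.38, RPS7 -0.31 and RPL12 -0.23, and RPL13 with thiram was -0.018 within the first numbers. Apart from fewer libraries or genes in a fit, the cause was not tested. Scalings by total counts and without mitochondrial rRNA, and trends over 4 dose groups without the block, were added after the data were seen. The cadmium libraries had 1.43 to 1.45 M counts; the part of depth in that result was not tested.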
